A study of Rattus norvegicus with 241 samples.

Results

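The epidermal growth factor (EGF) family of ligands and receptors was followed through every bulk and single-cell table of a rat mammary gland study of the TGFβ receptor inhibitor LY2157299 (TGFBRi). The members were chosen by gene symbol, ignoring case: the ligands AREG, EREG, HBEGF, TGFA, BTC and NRG1, and the receptors EGFR, ERBB2, ERBB3 and ERBB4, which make 10 of the 21707 gene symbols of the tables, 16820 of them in the bulk tables. The ligands are made as membrane proteins and are released by proteases such as ADAM17. AREG and TGFA bind EGFR, EREG, HBEGF and BTC bind EGFR and ERBB4, and NRG1 binds ERBB3 and ERBB4. The receptors act in pairs. ERBB2 has no known ligand of its own and ERBB3 signals mainly through its partners. In the mammary gland AREG is the ligand known to mediate estrogen-driven duct growth through EGFR in the stroma, and ERBB4 with its partner STAT5A is known for its part in lactation.

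TGFBRi or vehicle was given by mouth to female ACI and Sprague-Dawley (SD) rats for 10 days, at 75 mg/kg per dose and 2 doses per day. Young ACI rats were dosed from 35 days of age and their basal, luminal and CD45+ fractions were taken 0, 7 or 14 days after the last dose (D0, D7, D14; 3 rats per group), and young SD rats were dosed from 24 days of age and taken at D0 (4 per group). Adult ACI rats, virgin or parous, were dosed at 18 to 24 weeks and taken at D0 (4 per group for basal and luminal cells). Their CD45+ cells came from 4 vehicle and 3 TGFBRi virgin rats and from 2 vehicle and 4 TGFBRi parous rats. In the carcinogen experiment SD rats were dosed from 21 days of age, then received the mammary carcinogen N-nitroso-N-methylurea (NMU, at 50 mg/kg), and were taken 87 days after it in 3 groups of 3: vehicle rats with tumors, and TGFBRi rats without and with tumors. EPCAM+ and CD45+ cells were also sorted from NMU tumors (3 against 3). In the hormone experiment ACI rats were dosed from 38 days of age for 21 days. They were then given an empty pellet or a pellet of 37 mg estradiol (E2). They were taken at the end of the tumor experiment, months after the last dose. Luminal and CD45+ cells came from 4 vehicle and 3 TGFBRi rats without E2. With E2 they came from 4 vehicle tumor-bearing, 4 TGFBRi tumor-free and 2 TGFBRi tumor-bearing rats. Every vehicle rat with E2 bore a tumor, so E2 and tumor status cannot be told apart in these rats. Single cells were taken at D0 from sorted basal and luminal cells of young ACI rats (3 vehicle, 3 TGFBRi), from the same fractions of young SD rats (3 vehicle, 6 TGFBRi) and from whole glands of young SD rats (3 vehicle, 6 TGFBRi).

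Bulk values are normalized counts, the authors' read counts divided by a size factor per library, and are given in CPM (reads scaled to library size) where groups of separate tables stand side by side. Bulk differences are log2 differences of the normalized count + 1 from limma, with the SE and the p-value adjusted over all genes tested; a gene was called at an adjusted p of 0.05 or less. In bulk cells, fewer cells of a type and less RNA per cell cannot be told apart. The 202 bulk samples held 4194912 to 52314784 reads. The fractions carried their defining markers: in young ACI vehicle rats at D0 the summed level of 8 basal markers was 10260 to 14090 CPM in the basal fraction and 69.2 to 147 CPM in the luminal fraction, and that of 4 luminal keratins was 3143 to 4080 and 17990 to 20350 CPM.

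Among the 36 young ACI epithelial libraries 7 stood apart. Ribosomal protein genes took 4.76 to 9.35% of their reads and 0.843 to 3.89% in the other 29. They came from both fractions of vehicle replicate 3 and TGFBRi replicate 1 at D7, from both fractions of TGFBRi replicate 3 at D14 and from the basal fraction of vehicle replicate 1 at D14. In these 7 libraries ERBB3 was at 4.19 to 15.4 CPM, against 52.9 to 282 CPM in the others, and TGFA at 7.25 to 20.7 CPM, against 34.8 to 199 CPM. Neither gene overlapped between the sets of libraries, the other 8 members did, and of all genes 8.82% were lower and 3.16% higher in the 7 libraries without overlap. Total reads overlapped (14020201 to 21882576 against 4194912 to 23206431). What sets these libraries apart was not tested. Results at D7 and D14 with a limma p under 0.05 before adjustment were refitted without them. In 4 of these a call was gained, and they are given with the genes. In 29 the call stayed the same, and the refitted values of these are given only in part. Vehicle replicate 3 at D7 is also the rat whose description says treated in both fractions, while its title and treatment label say control. It was taken as vehicle.

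**Figure D1:**
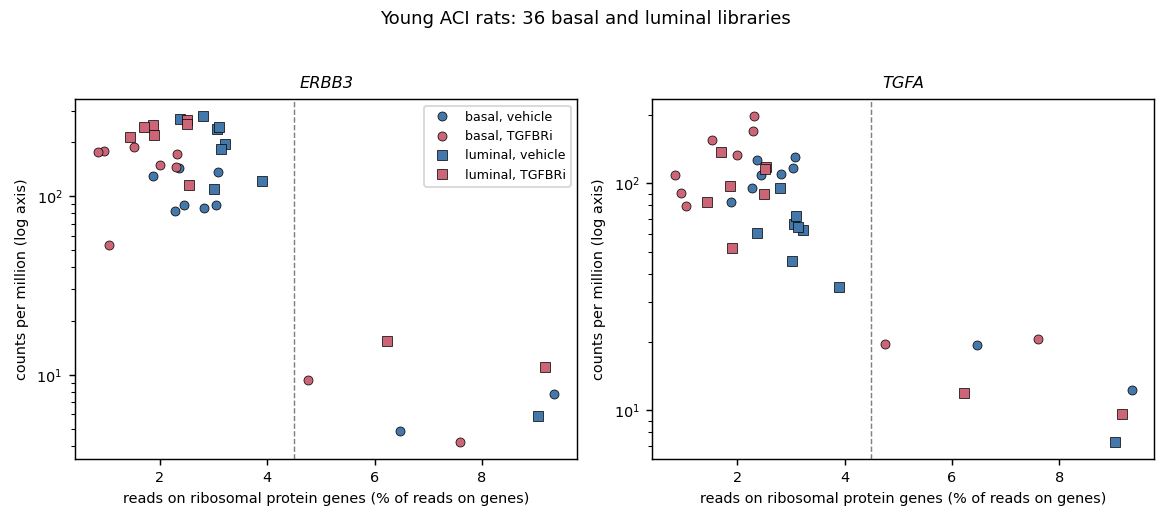
ERBB3 and TGFA level (CPM, log scale) against the percent of reads in ribosomal protein genes in the 36 young ACI basal and luminal libraries, one point per library. The 7 libraries over 4.5% lie at the bottom right, with ERBB3 at 4.19 to 15.4 CPM.

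The whole glands of young SD vehicle rats gave the cell types of the members. In these rats 6293 cells lay in unnamed clusters, some with luminal, endothelial or immune markers, and were left out. In vehicle rats of the sorted ACI and SD sets 458 and 386 cells were left out likewise. A level called highest is therefore the highest among the named classes. Classes are named "-like" from marker genes, the members and the other EGF pathway genes were left out of the clustering, and levels are UMIs (counted molecules) per 10000 UMIs of the class, as the mean ± SD of 3 rats. They carry no test because classes and levels come from the same cells. B-like cells serve as a floor, since RNA released by other cells is counted there too.

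AREG was highest in mature luminal-like cells, the hormone-sensing cells, at 11.2 ± 4.57 UMIs per 10000, followed by basal-like cells at 4.37 ± 2.36, fibroblast-like cells at 3.49 ± 1.70 and smooth muscle-like cells at 3.36 ± 1.90. The last 3 did not differ beyond their spread, luminal progenitor-like cells held 0.218 ± 0.113, and B-like cells held 0.0579 ± 0.0200. HBEGF, the heparin-binding ligand, was led by luminal progenitor-like cells at 9.98 ± 2.76, with basal-like (8.48 ± 0.924), endothelium-like (7.46 ± 1.11) and Schwann-like cells (7.31 ± 0.633) within that spread and mature luminal-like cells at 1.89 ± 0.509. NRG1 was basal, at 11.6 ± 4.22 in basal-like cells, 0.890 ± 0.275 in luminal progenitor-like cells and 0.0311 ± 0.0298 in B-like cells. EREG was highest in basal-like cells (1.10 ± 0.680), with macrophage-like (0.626 ± 0.578) and mature luminal-like cells (0.431 ± 0.138) within that spread. TGFA was highest in basal-like (0.487 ± 0.0964) and mature luminal-like cells (0.418 ± 0.145), within their spread of each other, and stood at 0.114 ± 0.0342 in Schwann-like and 0.0757 ± 0.0262 in luminal progenitor-like cells. BTC was highest in Schwann-like cells, the glia of peripheral nerves, at 2.11 UMIs per 10000, and stood at 0.473 in mature luminal-like cells.

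Among the receptors, EGFR was highest in fibroblast-like cells at 0.95 ± 0.415, followed by basal-like cells at 0.483 ± 0.0812 and luminal progenitor-like cells at 0.310 ± 0.0278. Mature luminal-like cells, which led for AREG, held 0.139 ± 0.0524 of EGFR. ERBB3 followed the opposite order among epithelial classes, with 1.26 ± 0.158 in mature luminal-like, 0.872 ± 0.0497 in luminal progenitor-like and 0.136 ± 0.0275 in basal-like cells, and 0.452 ± 0.110 in Schwann-like cells. ERBB2 was highest in mature luminal-like cells (0.391 ± 0.103), as was ERBB4 (0.0624 ± 0.0260). ERBB4 was at 0 in each vehicle rat's fibroblast-like, T-like, smooth muscle-like, endothelium-like and Schwann-like cells.

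The sorted cells showed the same leading class for AREG (mature luminal-like, 3.28 ± 1.5 in ACI and 26.6 ± 28.1 in SD rats), HBEGF (luminal progenitor-like, 7.43 ± 1.74 and 7.53 ± 0.194), NRG1 (basal-like, 8.21 in ACI and 11.4 ± 1.07 in SD rats) and ERBB4 (mature luminal-like, 0.548 ± 0.0573 and 0.252 ± 0.0217). HBEGF in basal-like cells differed between the 3 sets: it was 0.233 ± 0.133 in sorted ACI, 1.55 ± 0.602 in sorted SD and 8.48 ± 0.924 in whole-gland SD cells. For AREG in basal-like cells the 3 values were 0.121 ± 0.0701, 0.984 ± 0.323 and 4.37 ± 2.36. EREG, led by basal-like cells in whole glands, was highest in mature luminal-like cells in both sorted sets, at 0.0129 ± 0.00985 against 0.00327 ± 0.000854 in basal-like cells of ACI rats and 0.298 ± 0.289 against 0.0538 ± 0.0231 in SD rats. In both sorted sets the basal-like EREG level lay within the spread of the mature luminal-like one, and the ACI levels were low. Strain, age at dosing and preparation differ between these sets, and no test was made across them. By the paper's methods, sorted and whole-gland libraries were made with kits for opposite ends of the transcript. Only the sorted cells were filtered for keratin reads. Between sorted and whole-gland SD cells, a difference in the cells cannot be told apart from one of kit or filter.

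**Figure D2:**
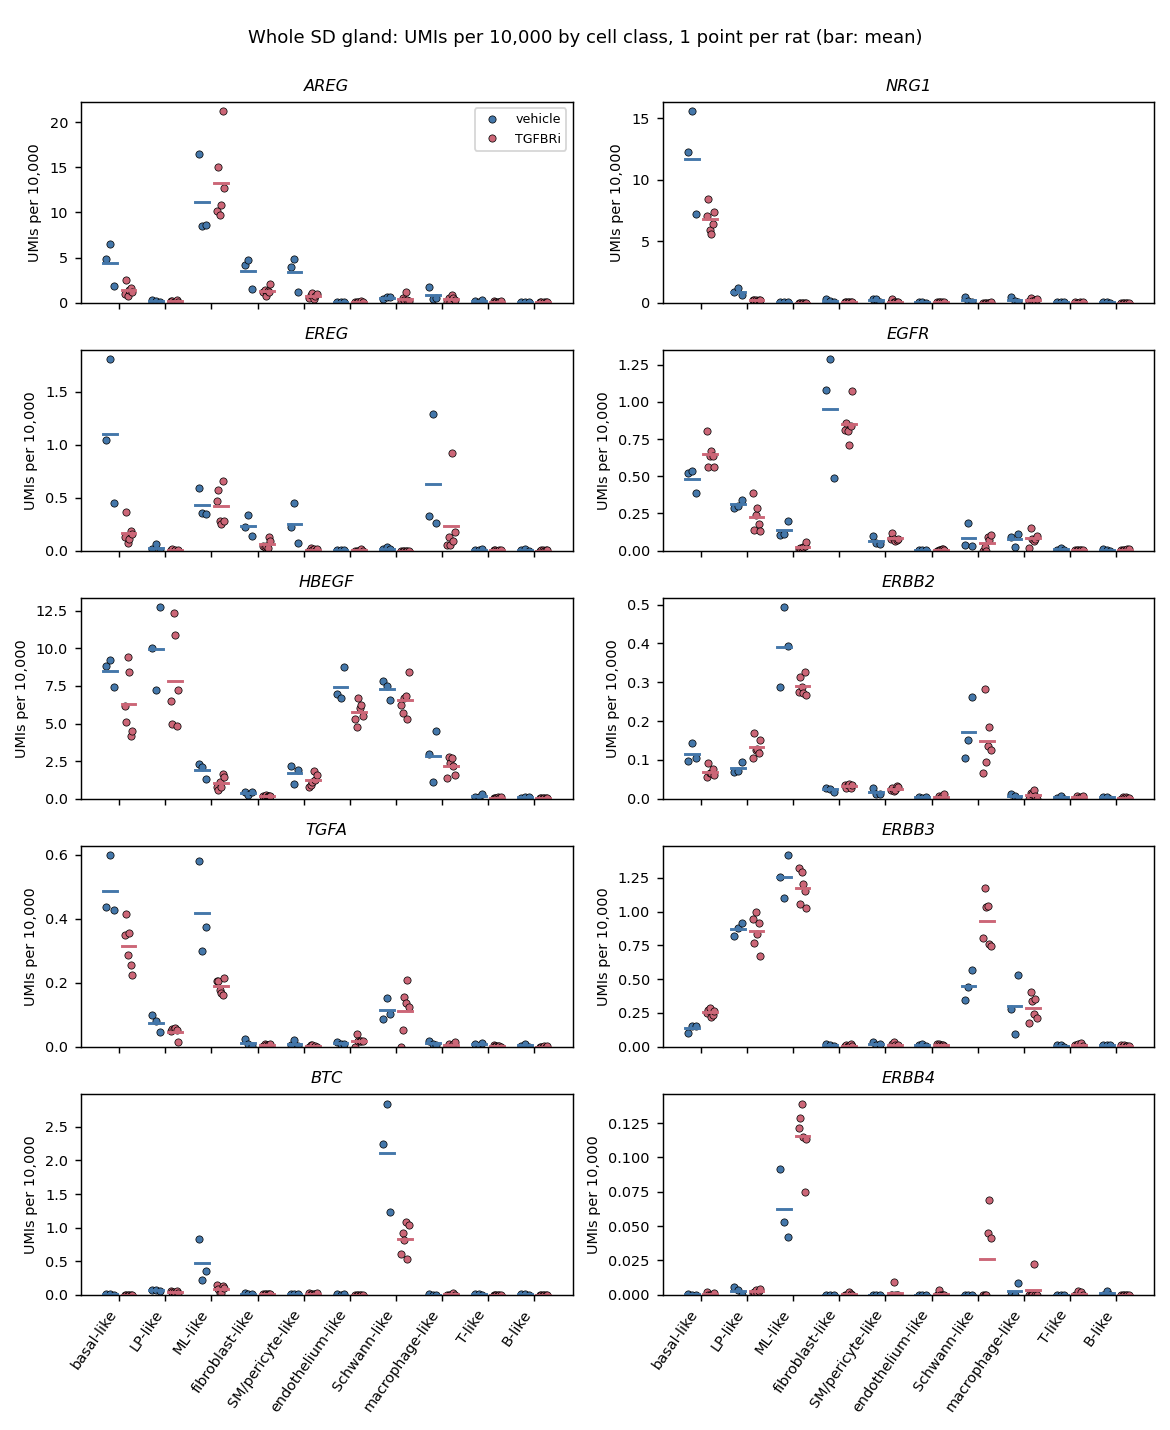
Level of the 10 members (UMIs per 10000, log scale) in the named classes of the whole glands of young SD rats, one point per rat, for 3 vehicle and 6 TGFBRi rats. NRG1 is led by basal-like cells (11.6 in vehicle rats), AREG by mature luminal-like cells (11.2) and BTC by Schwann-like cells (2.11).

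The sorted bulk fractions put a test on the basal and luminal difference in vehicle rats. In young ACI rats 7 of 10 members differed at D0, where 20.5% of all genes did, 5 at D7 (14.7% of all genes) and 5 at D14 (19.3%). In young SD rats 6 of 10 differed (40.9% of all genes) and in NMU rats 3 (27.3%), a share near that of all genes. Each rat gave both fractions. A fit with a replicate block for the rat called 8 members at D0 (34.6% of all genes), 8 at D7 (26.7%), 8 at D14 (32.9%), 6 in young SD (42.9%) and 4 in NMU rats (29.8%). TGFA (0.81 and 1.10) was gained at D0 and D7 (adjusted p = 0.0477 and 0.0112), ERBB2 at D7 (0.0438), AREG and ERBB3 at D14 (0.0369 and 0.00132), and the other gains are given with the genes.

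NRG1 was higher in basal cells in all 5 comparisons. In young ACI vehicle rats at D0 the basal normalized counts were 10290, 8019 and 7394 and the luminal ones 458, 382 and 320. At D14 they were 9835, 12340 and 13230 against 117, 338 and 171. The groups did not overlap, and the basal minus luminal difference was 4.47 (SE 0.335, limma adjusted p = 5.41e-11) at D0, 4.47 (adjusted p = 5.61e-11) at D7 and 5.95 (adjusted p = 3.93e-13) at D14. In young SD rats, where basal cells held 3200 to 7365 and luminal cells 153 to 645, it was 4.09 (SE 0.455, adjusted p = 1.66e-08), and in NMU rats 4.28 (adjusted p = 2.82e-07).

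HBEGF was higher in luminal cells in all 5 comparisons. At D0 it stood at 26160, 21750 and 23010 in luminal and 8804, 7288 and 5345 in basal cells of ACI rats. The difference, with no overlap, was −1.75 (adjusted p = 2.37e-04), and it was −1.63, −1.17, −2.41 and −1.60 at D7, at D14, in young SD and in NMU rats (adjusted p of 0.0121 or below in each). At D14 the call was lost without basal replicate 2 (−0.72, adjusted p = 0.288). BTC, with a median of 17.2 in luminal and 1.16 in basal cells at D0, was lower in basal cells in the 3 ACI comparisons (−3.11, −5.61 and −3.49, adjusted p = 7.49e-04, 2.31e-07 and 2.14e-04) and in NMU rats (−5.20, adjusted p = 4.13e-05). In young SD rats the BTC difference was −0.51 (SE 0.768, adjusted p = 0.644), with overlapping groups.

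The other ligands differed in fewer comparisons. AREG at D0 was at 1423, 2379 and 1752 in luminal and 355, 465 and 224 in basal cells of ACI rats, a difference of −2.44 (SE 0.604, adjusted p = 0.00337; 0.0566 without basal replicate 3) without overlap. It was −1.13 in young SD rats (adjusted p = 0.0414, and 0.0605 to 0.176 without any one basal library), where the groups overlapped, and −0.31 (adjusted p = 0.871) and −0.93 (adjusted p = 0.363) at D7 and D14. In NMU rats the AREG difference was −1.19 (adjusted p = 0.0846, and 0.0206 with the replicate block). TGFA and EREG were higher in basal cells of young SD rats. TGFA stood at 1061 to 1487 on the basal and 87.9 to 683 on the luminal side (2.02, SE 0.467, adjusted p = 7.6e-04), and EREG at 113 to 279 and 32.3 to 65.5 (1.91, SE 0.522, adjusted p = 0.00363). Neither pair of groups overlapped. In these SD rats ribosomal protein genes took 4.17 to 9.36% of luminal and 2.32 to 2.82% of basal reads, and the part of this in the TGFA result was not tested. EREG at D7 in ACI rats differed by 1.90 (adjusted p = 0.165, and 0.0217 with the replicate block).

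EGFR was higher in basal cells at D0, at D7 and in young SD rats. At D0 its values were 1875, 1779 and 1577 in basal and 355, 230 and 294 in luminal cells, a difference of 2.59 (SE 0.533, adjusted p = 5.17e-04), and it was 2.25 (adjusted p = 0.00287) at D7 and 2.37 (adjusted p = 2.69e-05) in young SD rats. At D14 it was 1.26, with an adjusted p of 0.106, of 0.000215 with the replicate block and of 1.49e-05 (difference 1.70) without the libraries high in ribosomal protein reads, and in NMU rats it was 0.76 (adjusted p = 0.253). ERBB4 was higher in luminal cells of ACI rats. At D0 it stood at 551, 375 and 335 in luminal and 10.3, 18.8 and 46.2 in basal cells. The difference was −4.23, −3.71 and −5.48 at the 3 days (adjusted p = 3.77e-04, 0.00204 and 1.45e-05), all without overlap, and −2.14 in young SD and −1.84 in NMU rats (adjusted p = 0.0672 and 0.216). ERBB2 was lower in basal cells at D0 (−3.71, adjusted p = 0.00215) and D14 (−2.73, adjusted p = 0.0254), and each call was lost without 1 library (basal replicate 1 at D0, 0.0845; basal replicate 1 or 3 at D14, 0.326 and 0.0731). Without the replicate block ERBB3 was called in no lineage comparison by limma, with the difference between −2.31 (D14) and 0.58 (young SD) and SEs of 0.529 to 1.29. The D7 and D14 comparisons include ribosomal-high libraries, in which ERBB3 was low. In young SD rats ribosomal protein genes took 4.17 to 9.36% of luminal and 2.32 to 2.82% of basal reads. In NMU vehicle rats they took 5.14 to 21.6% and 3.19 to 3.82%. The part of this in the ERBB3 differences was not tested.

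**Figure D3:**
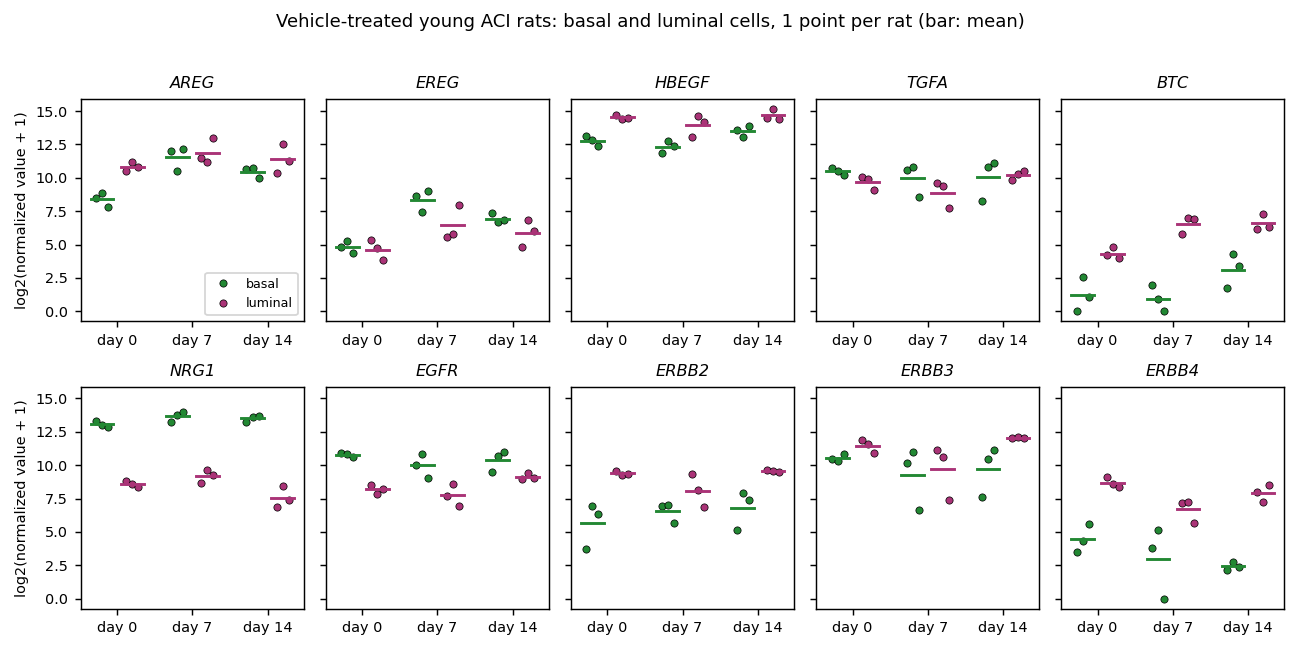
Normalized counts (log scale) of the 10 members in basal and luminal cells of young ACI vehicle rats at D0, D7 and D14, one point per rat. NRG1 and EGFR are higher in basal cells and HBEGF, BTC and ERBB4 higher in luminal cells; NRG1 at D0 is at 7394 to 10290 against 320 to 458.

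Levels over all vehicle groups are given as a description. Group means of NRG1 ran from 203 to 845 CPM in the 7 basal groups, 11.2 to 36.7 CPM in the 9 luminal groups and 1.5 to 24.6 CPM in the 10 CD45+ groups. HBEGF means were 151 to 636, 574 to 2115 and 24.6 to 277 CPM, with neighbouring ranges overlapping. TGFA, EGFR and ERBB3 means in CD45+ cells stayed at or below 9.93, 21.1 and 19 CPM, and the CD45+ means of BTC and ERBB4 at or below 0.962 and 2.71 CPM. In the EPCAM+ cells of NMU tumors of vehicle rats AREG was at 98 to 927 CPM and ERBB2 at 18.7 to 34.5 CPM.

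BTC, AREG, EREG and EPGN, another EGF family ligand, lie next to each other on rat chromosome 14 in the RefSeq genes of GRCr8. The promoters of AREG and BTC are shown because these are the ligands that changed with day, E2 or TGFBRi in the bulk fractions. RefSeq (GRCr8) gave a promoter for 7 of the 10 members, from 250 bases before to 50 after the gene start. The AREG window is chr14:17265592-17265891 on the minus strand and the BTC window chr14:16992418-16992717 on the plus strand, and capitals mark matches to the 5 motifs searched:
AREG: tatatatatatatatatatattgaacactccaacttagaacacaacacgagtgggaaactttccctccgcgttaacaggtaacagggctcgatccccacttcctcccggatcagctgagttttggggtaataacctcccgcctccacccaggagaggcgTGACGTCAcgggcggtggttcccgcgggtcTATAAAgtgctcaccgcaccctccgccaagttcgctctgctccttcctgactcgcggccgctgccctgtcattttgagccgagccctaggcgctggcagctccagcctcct
BTC: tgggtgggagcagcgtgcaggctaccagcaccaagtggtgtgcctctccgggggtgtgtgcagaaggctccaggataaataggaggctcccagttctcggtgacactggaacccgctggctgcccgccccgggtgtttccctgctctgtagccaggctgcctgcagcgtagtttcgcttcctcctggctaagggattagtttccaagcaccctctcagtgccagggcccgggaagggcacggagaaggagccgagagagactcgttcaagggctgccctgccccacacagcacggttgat
The motifs, on both strands, were the cAMP response element TGACGTCA, the AP-1 site TGANTCA, the TATA box TATAAA, the SMAD box CAGAC and the palindromic estrogen response element. AREG held a cAMP response element at −91 and a TATA box at −61 from the gene start, and BTC held none of the 5. Of 33469 promoters 1.83% held the cAMP response element, 14.2% the TATA box, 7.33% the AP-1 site, 50.1% the SMAD box and 0.0269% the estrogen response element. Of the other members with a window, HBEGF held 3 SMAD boxes and TGFA 1, and EGFR, ERBB2 and ERBB4 none of the 5 motifs. These are matches of letters and do not show binding.

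In young vehicle rats AREG rose in basal cells between D0 and D7. It stood at 355, 465 and 224 at D0, 4129, 1469 and 4523 at D7 and 1614, 1724 and 1007 at D14. Every D7 and D14 rat was above every D0 rat, and the change was 3.18 (SE 0.530, adjusted p = 0.0200) to D7 and 2.08 (adjusted p = 0.176) to D14. Of all genes 0.192% were called at D7 and 0.0384% at D14. Without the libraries high in ribosomal protein reads the changes were 2.88 (adjusted p = 0.00199) and 1.98 (adjusted p = 0.0208). Fitted on the D0 and D7 groups alone, the D7 change had an adjusted p of 0.133, and leaving out one rat at a time gave adjusted p-values from 0.0533 to 0.163 in 5 of 6 cases, namely every D0 rat and D7 replicates 1 and 3. EREG, its neighbour on the chromosome, stood at 27.4, 37.5 and 19.6 at D0 and 394, 172 and 509 at D7, without overlap, a change of 3.53 (SE 0.905, adjusted p = 0.124).

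In luminal cells it was BTC that rose with the day. Its values were 17.2, 27.0 and 14.9 at D0, 53.8, 129 and 121 at D7 and 70.8, 156 and 80.9 at D14. The D0 rats lay below all others, and the change was 2.25 (SE 0.47, adjusted p = 0.0364) to D7 and 2.28 (SE 0.47, adjusted p = 0.0427) to D14. Calls covered 0.685% and 0.389% of all genes, and the median gene shifted by 0.20 at D7. Leaving out any one of the 6 rats lost the D7 call (adjusted p 0.0514 to 0.185) and the D14 call (0.0943 to 0.249). Fitting the D0 and D7 groups alone also lost the D7 call, and TMM-scaled log2 CPM lost the D14 call. Without the ribosomal-high libraries the D7 change was 2.07 (adjusted p = 0.0237). The cycling-cell marker median moved by 2.77 at D7, with 1 of 5 called, and the milk gene median by 2.80 at D14, with 0 of 5 called, and their part in the BTC result was not tested. ERBB4 in luminal cells was 551, 375 and 335 at D0 and 145, 149 and 50.8 at D7, with no overlap (−1.98, SE 0.563, adjusted p = 0.113; −1.47 and 0.0125 without the ribosomal-high libraries). None of the other members was called over the days in either fraction by limma.

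**Figure D4:**
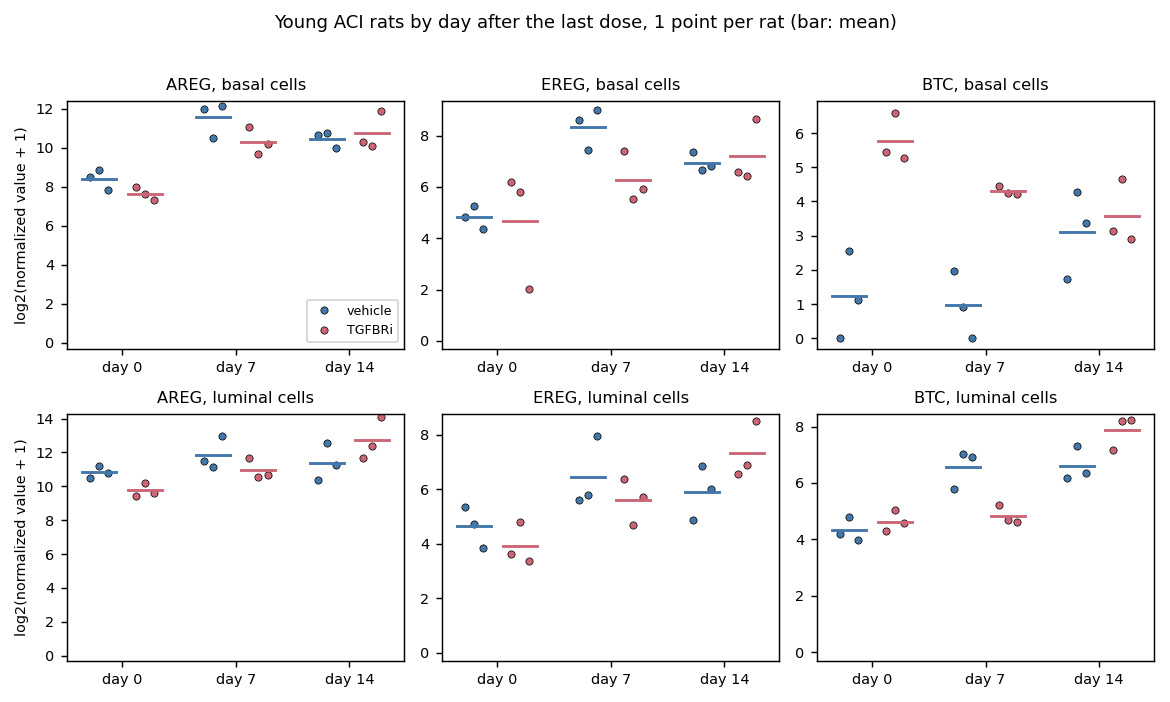
Normalized counts (log scale) of AREG and BTC in basal and luminal cells of young ACI rats at D0, D7 and D14, one point per rat, vehicle and TGFBRi side by side. Basal AREG in vehicle rats is at 224 to 465 at D0 and 1469 to 4523 at D7; luminal BTC is at 14.9 to 27.0 at D0 and 53.8 to 129 at D7.

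TGFBRi changed few members in the bulk fractions, and 2 of the calls were of BTC at low values. In young ACI basal cells at D0 BTC was at 42.3, 95.8 and 37.5 with TGFBRi and 0, 4.89 and 1.16 with vehicle. The groups did not overlap and the change was 4.55 (SE 0.847, adjusted p = 0.0149), where 3.34% of all genes were called and the median gene shifted by 0.30. It was not called by edgeR on the recovered reads (adjusted p = 0.1), nor without vehicle replicate 1 (0.0717) or TGFBRi replicate 2 (0.0653). In the same libraries the summed leukocyte markers were 32.9 to 68.2 CPM with TGFBRi and 5.54 to 24.5 CPM with vehicle, with 1 of 5 called higher. The basal markers were 3299 to 7587 against 10260 to 14090 CPM, with 1 of 8 called lower, and the ribosomal protein share was 0.843 to 1.04% against 1.88 to 2.45%. The Schwann cell markers were 1556 to 2431 against 423 to 823 CPM, with 1 of 5 called higher, and milk genes 220 to 1018 against 121 to 186 CPM, with 0 of 5 called. Their part in the BTC result was not tested. The other 9 members were not called in basal cells at D0, and none of the 10 was called in luminal cells at D0 (1.01% of all genes called), D7 or D14 (0% called). Basal AREG differed by −0.75 (95% interval −1.88 to 0.37) and NRG1 by −0.12 (−0.71 to 0.47). In basal cells 0.00639% of all genes were called at D7 and 0% at D14, and no member was. ERBB4 in luminal cells at D7 differed by 1.44 (adjusted p = 0.0382) with the ribosomal-high libraries left out.

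In basal cells of adult virgin ACI rats 3 members fell with TGFBRi, where 8.73% of all genes were called and the median gene shifted by −0.25. EGFR was at 1234, 879, 760 and 515 with TGFBRi and 1682, 1906, 2217 and 2028 with vehicle. No rat overlapped, and the change was −1.27 (SE 0.267, adjusted p = 0.00924). ERBB3 was at 389, 250, 157 and 229 against 2457, 802, 678 and 777, also without overlap, a change of −2.05 (SE 0.405, adjusted p = 0.00679). BTC was at 0 in the 4 TGFBRi rats and at 107.3, 3.33, 23.7 and 9.28 in vehicle rats. With 0 reads against 160, it was at least 47.3-fold lower, taking a floor of 3 reads over the group (limma adjusted p = 0.0199). Vehicle replicate 1 gave 118 of these reads, and without it the bound was 17-fold. Fitted on those groups alone, the adjusted p-values were 0.0580, 0.0562 and 0.0903 for EGFR, ERBB3 and BTC, and BTC was also lost without vehicle replicate 1 (0.0509) or 3 (0.0580) and on TMM-scaled log2 CPM (0.0874). Marker medians of mature luminal cells (−3.44, 2 of 8 called lower) and leukocytes (−3.21, 1 of 5 called lower) moved in the same direction, as did those of endothelium (−1.82, 2 of 8 called lower) and lymphatic endothelium (−3.19, 0 of 4 called; summed level 0 to 24.5 CPM with TGFBRi against 26.1 to 454 CPM with vehicle), and the highest vehicle rat reached 968 CPM of macrophage markers against at most 22.8 CPM with TGFBRi; their part was not tested. Fibroblast markers summed to 428 to 5472 CPM (median 601) with TGFBRi and 1209 to 2849 CPM (median 1547) with vehicle. Luminal progenitor markers summed to 202 to 613 and 257 to 3052 CPM. Both overlapped, and their part was not tested either. No member was called in parous rats, where 0.00744% of basal and 0.0281% of luminal genes were, or in luminal cells of virgin rats (0%), or between parous and virgin vehicle rats (0% in each fraction).

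In luminal cells of NMU rats the receptors ERBB2 and ERBB3 were higher in tumor-free TGFBRi rats than in tumor-bearing vehicle rats. ERBB2 stood at 824, 513 and 483 against 180, 64.7 and 201 (2.14, SE 0.490, adjusted p = 0.0417). ERBB3 stood at 1510, 1783 and 1292 against 432, 190 and 460 (2.17, SE 0.482, adjusted p = 0.0403). Neither overlapped, 0.948% of all genes were called and the median gene shifted by −0.32. The ligands AREG (1269, 2355 and 1535 against 9191, 6289 and 4410; −1.93, adjusted p = 0.0543) and BTC (11.2, 15.5 and 39.1 against 432, 129 and 44.1; −2.77, adjusted p = 0.128) were lower in every tumor-free TGFBRi rat without passing the threshold. Leaving out vehicle replicate 1 or 2 or any of the 3 TGFBRi rats ended both receptor calls, with adjusted p-values of 0.130 to 0.289. So did TMM-scaled log2 CPM (0.0619 for ERBB2 and 0.0632 for ERBB3) and no filter on low values (0.0525 and 0.0515). Ribosomal protein genes took 5.14 to 21.6% of reads in the vehicle libraries and 3.79 to 4.36% in the TGFBRi ones, and their part was not tested. In tumor-bearing TGFBRi rats (0.212% of all genes called) the changes were −1.87 for AREG, 1.92 for ERBB2 and 1.75 for ERBB3 (adjusted p = 0.0742, 0.0742 and 0.0914), against the same vehicle rats. In NMU basal cells no member was called (0% of all genes in tumor-free and 1.31% in tumor-bearing rats), nor in tumor EPCAM+ or CD45+ cells (0%).

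In luminal cells of ACI rats 1 change with E2 passed the threshold, a rise of EGFR in tumor-free TGFBRi rats. The AREG, BTC and ERBB4 values were mostly lower with E2 without passing it, and HBEGF, TGFA and EREG overlapped between rats with and without E2. With TGFBRi, EGFR was at 1080, 1467, 2080 and 1346 in tumor-free rats with E2 and 634, 224 and 503 without E2. The rats did not overlap and the change was 1.80 (SE 0.363, adjusted p = 0.00945), where 4.58% of all genes were called. The 2 tumor-bearing TGFBRi rats with E2, which are not in this comparison, were at 482 and 906, 1 of them among the rats without E2. With vehicle, EGFR was at 917, 963, 1158 and 826 with E2 and 711, 426, 540 and 880 without. The difference between these E2 effects was 1.17 (limma adjusted p = 1.00), so the effect was not shown to differ. AREG was at 1564, 665, 1216 and 1274 with E2 and vehicle and 5862, 6153, 27570 and 767 without (−2.22, SE 0.71, adjusted p = 0.130), and with TGFBRi at 2815, 1840, 2424 and 3018 against 6373, 17640 and 9831 (−2.06, SE 0.766, adjusted p = 0.141). BTC with vehicle was at 115, 133, 35.2 and 153 against 1251, 754, 862 and 173 (−2.67, SE 0.717, adjusted p = 0.0718), with 1.48% of all genes called. AREG without E2 spread from 767 to 27570, and 1 vehicle rat without E2 lay among the E2 rats. In the TGFBRi comparison 5 of 9 mature luminal markers were lower and 4 of 5 milk genes higher, and their part in the EGFR result was not tested.

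**Figure D5:**
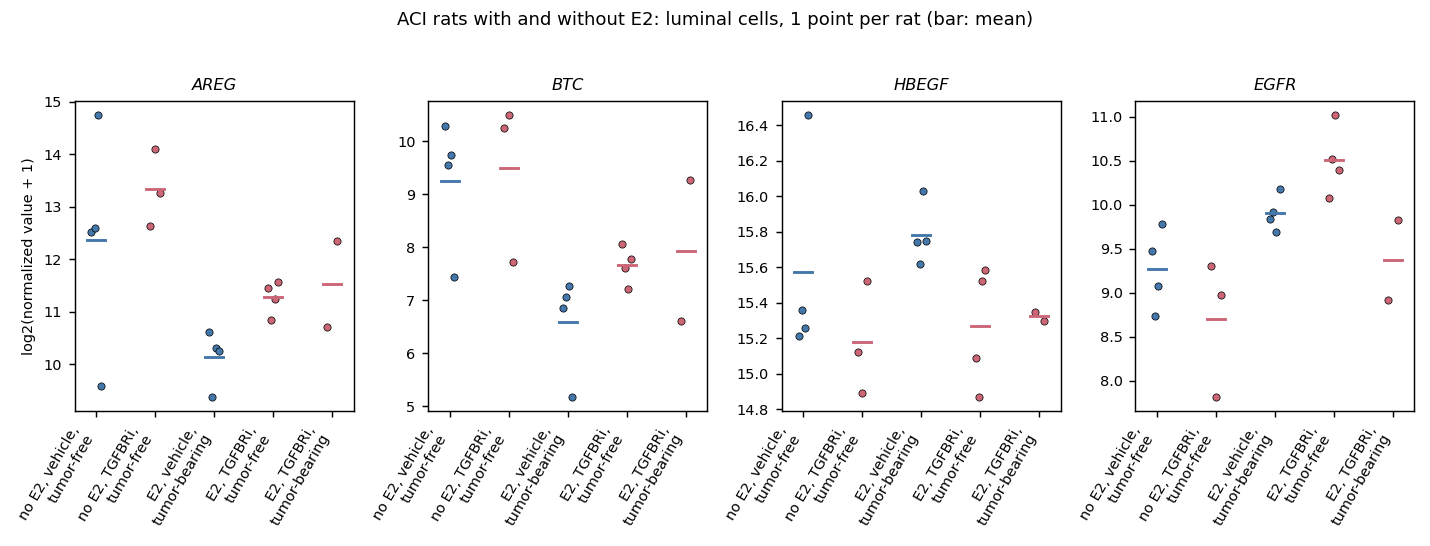
Normalized counts (log scale) of the members in luminal cells of the E2 experiment, one point per rat, by E2, treatment and tumor status. EGFR in tumor-free TGFBRi rats is at 224 to 634 without E2 and 1080 to 2080 with E2, and at 482 and 906 in the 2 tumor-bearing TGFBRi rats with E2; AREG without E2 spreads from 767 to 27570.

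In CD45+ cells 1 member was called. BTC was at 0 in the 4 vehicle rats with E2 and at 24.6, 35.6, 12.8 and 6.40 in those without, which is at least 25.3-fold lower from 0 reads against 75 (limma adjusted p = 0.0193, edgeR 0.0961), with 0.282% of all genes called. In these cells 2 of 4 luminal keratins were lower, with a sum of 23.6 to 79.2 CPM against 256 to 339 CPM, and their part was not tested. Leaving out 1 rat ended the call in 4 of 8 cases (replicates 1, 2 and 3 without E2 and replicate 1 with E2; adjusted p 0.0571 to 0.0769). With E2 and TGFBRi 5.58% of genes were called in CD45+ cells and no member. Between treatments in the E2 rats the shares were 0.0147% (luminal, tumor-free and without E2 alike), 0.00736% (luminal, tumor-bearing) and 0.0223% (CD45+, tumor-bearing). In CD45+ cells of young ACI rats they were 2.85% at D0, 0.129% for vehicle D14 against D0, and 0.0135% and 0.19% for the change of the TGFBRi effect to D7 and D14 (0.00659% and 0.00639% for D14 in luminal and basal cells), and 0.022% in adult virgin and 0.015% in tumor-bearing NMU rats. No member was called in any of them. Over the 45 of 53 comparisons in which limma called no member, 58 of 448 member tests (12.9%, beside 7.88% of the tests of all genes) had an unadjusted p under 0.05, edgeR called 1 member (0.223%, beside 0.227%) and DESeq2 called 11 in 6 comparisons (2.46%, beside 1.54%).

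Single cells at D0 gave the TGFBRi difference within a class. UMIs were summed per class and rat and tested with edgeR's quasi-likelihood test, a gene being called at an adjusted p of 0.1 or less. The SE of each log2 change is from DESeq2. Values are UMIs per 10000. Libraries shared at most 2.51% of barcodes with another library, and single rats gave 98.6% of 1 basal-like and 85.4 to 91.6% of 3 luminal progenitor-like clusters in the sorted SD cells.

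In sorted ACI rats HBEGF was higher with TGFBRi in each epithelial class. In basal-like cells it was 0.326, 0.293 and 0.0811 with vehicle and 0.779, 0.781 and 0.933 with TGFBRi, without overlap (2.02, SE 0.571, edgeR adjusted p = 0.00127). In luminal progenitor-like cells, its main source, it was 9.43, 6.67 and 6.19 against 11, 13.5 and 13.6 (1.13, SE 0.169, adjusted p = 0.00120), and in mature luminal-like cells 0.98, 0.813 and 0.442 against 1.32, 1.75 and 2.62 (1.56, SE 0.445, adjusted p = 0.00333). The groups did not overlap in either. EGFR was lower in basal-like cells, at 0.506, 0.514 and 0.53 with TGFBRi against 0.845, 0.945 and 1.11 with vehicle (−0.67, SE 0.133, adjusted p = 0.00129), and in luminal progenitor-like cells, at 0.0896 to 0.154 with TGFBRi against 0.268 to 0.291 with vehicle (−0.77, adjusted p = 0.0163). ERBB3 in basal-like cells was 0.47 to 0.63 with TGFBRi against 0.350 to 0.417 with vehicle (0.69, SE 0.144, adjusted p = 0.00204). AREG in basal-like cells was called at 1.19 (adjusted p = 0.0216, and 0.106 without TGFBRi replicate 1) with overlapping rats. TGFA in luminal progenitor-like cells was called at 0.82 (adjusted p = 0.0709; DESeq2 0.213) from 47 UMIs with vehicle and 58 with TGFBRi, with overlapping rats. In the bulk fractions of young ACI rats at D0 neither HBEGF nor EGFR was called with TGFBRi, in basal or luminal cells. Of the members tested 4 of 9 were called in basal-like cells (34.1% of all genes), 4 of 9 in luminal progenitor-like cells (28.3%) and 2 of 10 in mature luminal-like cells (25.7%). Beside HBEGF, the call in mature luminal-like cells was BTC (1.02, SE 0.48, edgeR adjusted p = 0.0627, DESeq2 0.114). It was lost without TGFBRi replicate 1 or 3 or vehicle replicate 2 or 3 (edgeR adjusted p 0.133 to 0.180). BTC in this class of whole-gland cells, given below, was lower, and the difference was not tested. The ERBB3 call in luminal progenitor-like cells (0.39, adjusted p = 0.0175) came with UMIs per 10000 of 1.14 to 1.24 against 1.17 to 1.24, which overlap before the TMM scaling of the fit. That scaling covers every gene of the class. Its fitted HBEGF, TGFA and EGFR changes are therefore also shifted upward from what the printed values give. The fits of all other single-cell classes were TMM-scaled too, so their fitted changes can also differ from what the printed values give.

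In sorted SD rats EGFR was also lower with TGFBRi. In basal-like cells it was 0.769, 0.593 and 0.853 with vehicle, and the lowest and highest of 6 TGFBRi rats were 0.0789 and 0.4, all under the vehicle rats (−1.58, SE 0.420, adjusted p = 0.0206; 0.124 without vehicle replicate 3). In luminal progenitor-like cells it was 0.287 to 0.319 with vehicle against 0.0189 to 0.138 with TGFBRi (−1.79, SE 0.512, adjusted p = 0.0390; 0.116 to 0.151 without any one vehicle rat). AREG in basal-like cells was 1.20, 1.15 and 0.613 with vehicle against 0.747 to 5.04 with TGFBRi, with 1 TGFBRi rat in the vehicle range (1.91, SE 0.424, adjusted p = 0.0173; 0.122 without vehicle replicate 3). ERBB4 in mature luminal-like cells was 0.233, 0.276 and 0.246 with vehicle against 0.0660 to 0.179 with TGFBRi (−0.93, SE 0.307, adjusted p = 0.0365; 0.108 and 0.105 without vehicle replicate 1 or 2, and 0.131 over the sorted luminal fraction in place of the class). TGFA in mature luminal-like cells was 0.228 to 0.411 with vehicle against 0.105 to 0.235 with TGFBRi, with overlap (−0.68, SE 0.302, adjusted p = 0.0954; 0.571 over the sorted luminal fraction). In bulk basal cells of young SD rats (4 against 4) EGFR was at 544 to 867 with TGFBRi and 565 to 945 with vehicle (0.05, 95% interval −0.39 to 0.49), and AREG at 406 to 2048 and 562 to 1888 (−0.46, −1.56 to 0.65), both overlapping. Bulk luminal AREG differed by −1.01 (limma adjusted p = 1.00) and EGFR by −0.09. No gene was called by limma in either fraction (0%), and edgeR and DESeq2 called no member; AREG in luminal cells was the 1 member with an unadjusted p under 0.05. HBEGF, higher in all sorted ACI classes, was not called in sorted SD basal-like cells (0.845, SE 0.798, edgeR adjusted p = 0.354). Nor was it in luminal progenitor-like (0.245, adjusted p = 0.660) or mature luminal-like cells (0.60, adjusted p = 0.304). The counts of members called in the single cells were 2 of 9, 2 of 10 and 2 of 10 in basal-like, luminal progenitor-like and mature luminal-like cells, where 29.8%, 29% and 32.2% of all genes were called. Beside EGFR, the call in luminal progenitor-like cells was AREG (1.53, SE 0.487, edgeR adjusted p = 0.0594). Over the sorted luminal fraction it was 0.40 (0.558). The AREG call was lost without TGFBRi replicate 4 or any one vehicle rat (0.103 to 0.188).

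In whole glands of SD rats several ligands were lower with TGFBRi. Of the 6 ligands 5 fell in basal-like cells (22.7% of all genes fell), 4 in fibroblast-like cells (15.2%), 4 in mature luminal-like cells (15.2%), 3 in luminal progenitor-like cells (14.9%) and 2 in smooth muscle-like cells (15.5%), and none rose in these. The median ligand change was −1.23 in basal-like cells, beside a median of 0.06 over all genes, and −1.39, −1.07, −1.01 and −1.72 in the others, beside 0.04, 0.02, 0.05 and 0.01. All 6 fell in B-like cells too (8.63% of all genes), at low levels such as AREG at 0.0349 to 0.0704 UMIs per 10000 with vehicle and 0.00679 to 0.0429 with TGFBRi. B-like cells are the floor, and the ligand changes there ran from −1.37 (HBEGF) to −2.99 (BTC). The part of this in the ligand falls of the other classes, above all those at low levels, was not tested. Without vehicle replicate 2 the calls of BTC and TGFA in basal-like cells were lost (edgeR adjusted p = 0.166 and 0.157), as was EREG in luminal progenitor-like cells (0.289). Without vehicle replicate 1, NRG1 in fibroblast-like (0.154) and BTC in luminal progenitor-like cells (0.166) were lost. NRG1 in fibroblast-like cells was also lost without likely doublets (0.234). The vehicle rat with replicate number 3 was the lowest of the vehicle rats for AREG, EREG and NRG1 in basal-like cells.

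AREG fell in basal-like cells (4.80, 6.47 and 1.82 with vehicle; 0.733 to 2.47 with TGFBRi; −1.67, SE 0.392, adjusted p = 0.00464), in fibroblast-like cells (4.16, 4.76 and 1.56; 0.719 to 2.03; −1.58, SE 0.303, adjusted p = 0.00234) and in smooth muscle-like cells (3.98, 4.87 and 1.23; 0.430 to 1.05; −2.25, SE 0.360, adjusted p = 5.81e-04). The groups overlapped in the first 2 of these classes. In mature luminal-like cells, where it was highest, AREG differed by 0.17 (SE 0.289, adjusted p = 0.728). EREG was 1.04, 1.81 and 0.451 in basal-like cells with vehicle and 0.0725 to 0.366 with TGFBRi, without overlap (−2.69, SE 0.580, adjusted p = 7.09e-04). NRG1 in basal-like cells was 12.2, 15.6 and 7.17 against 5.62 to 8.39, with overlap (−0.78, SE 0.232, adjusted p = 0.0108), and in luminal progenitor-like cells 0.632 to 1.18 against 0.149 to 0.188 (−2.50, SE 0.214, adjusted p = 6.21e-05). TGFA was 0.300, 0.374 and 0.580 with vehicle in mature luminal-like cells and 0.162 to 0.215 with TGFBRi (−1.25, SE 0.238, adjusted p = 0.00140), and in basal-like cells 0.436, 0.598 and 0.426 against 0.225 to 0.415 (−0.63, SE 0.226, adjusted p = 0.0248; 0.157 without vehicle replicate 2). Neither pair of groups overlapped. The AREG change in basal-like cells was upward in sorted ACI and SD cells and downward in whole-gland cells. The difference was not tested, and library kit and cell filter differ between these sets.

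HBEGF was not called in luminal progenitor-like (−0.48, adjusted p = 0.334), basal-like (−0.41, adjusted p = 0.235) or Schwann-like cells (−0.24, adjusted p = 0.406), 3 of the 4 classes with its highest levels. It fell in fibroblast-like (0.238 to 0.438 with vehicle, 0.149 to 0.250 with TGFBRi; −1.21, SE 0.253, adjusted p = 0.00305), mature luminal-like (1.32 to 2.28, 0.603 to 1.63; −0.88, adjusted p = 0.0493, and 0.162 and 0.120 without vehicle replicate 1 or 2) and T-like cells (0.0927 to 0.305, 0.0551 to 0.0824; −1.25, adjusted p = 0.0507, and 0.120 without vehicle replicate 3). HBEGF also fell in B-like cells, the floor (−1.37, SE 0.291, edgeR adjusted p = 0.00501), and the part of this in the T-like result was not tested. In endothelium-like cells HBEGF fell from 6.93, 6.71 and 8.74 to 4.77 to 6.72 (−0.58, SE 0.145, adjusted p = 0.00734), where 32.3% of all genes were called and 1 of 8 members. BTC fell in Schwann-like cells, from 2.24, 2.85 and 1.24 to 0.530 to 1.09 without overlap (−1.38, SE 0.289, adjusted p = 0.00237), and in mature luminal-like cells, from 0.227 to 0.834 to 0.0259 to 0.149 (−2.61, SE 0.679, adjusted p = 0.00335). In Schwann-like cells ERBB3, the neuregulin receptor that Schwann cells depend on, rose from 0.348, 0.442 and 0.57 to 0.748 to 1.18 (0.91, SE 0.288, adjusted p = 0.0258; 0.116 without vehicle replicate 1), and 3 of 8 members were called, beside 10.7% of all genes. The third was NRG1, an ERBB3 ligand, which was lower, with 41 UMIs in the 3 vehicle rats (0.0568 to 0.469 UMIs per 10000) and 1 UMI in the 6 TGFBRi rats (edgeR adjusted p = 0.00544; DESeq2 gave no adjusted p). NRG1 fell in B-like cells too (−2.13, SE 0.602, edgeR adjusted p = 0.0200, and 0.184 without vehicle replicate 2). The part of this in the Schwann-like result was not tested. Among the epithelial receptors, ERBB3 in basal-like cells rose from 0.105 to 0.153 to 0.218 to 0.290 (0.92, SE 0.180, adjusted p = 0.00118). EGFR in mature luminal-like cells fell from 0.105 to 0.199 to 0.0140 to 0.0557 (−2.35, SE 0.412, adjusted p = 9.32e-04), and in basal-like cells it was called upward (0.41, adjusted p = 0.0686; 0.234 without vehicle replicate 3), from 0.389 to 0.536 to 0.565 to 0.807. ERBB2 was called lower in basal-like (−0.72, adjusted p = 0.0135) and mature luminal-like cells (−0.47, adjusted p = 0.0435) and higher in luminal progenitor-like cells (0.63, adjusted p = 0.0478). Each of these calls was lost without 1 vehicle rat (replicate 2 in basal-like cells, 0.113; 2 or 3 in mature luminal-like cells, 0.193 and 0.116; 1 or 2 in luminal progenitor-like cells, 0.132 and 0.103). ERBB4 in mature luminal-like cells was called higher (0.75, adjusted p = 0.0758), where it was called lower in sorted SD cells. The call was lost without vehicle replicate 2 or 3 or TGFBRi replicate 1, 2, 3, 4 or 6 (0.108 to 0.264), and the difference from the sorted cells was not tested. Basal EGFR thus had opposite signs in sorted and whole-gland cells, a difference that was not tested. For ERBB4 and EGFR too, library kit and cell filter differ between these sets. Over ligands and receptors 8 of 9 tested members were called in basal-like cells (44.4% of all genes), 7 of 10 in mature luminal-like (28.0%), 4 of 10 in luminal progenitor-like (28.1%), 4 of 9 in fibroblast-like (29.3%), 2 of 9 in smooth muscle-like (27.8%), 6 of 9 in B-like (17.4%), 1 of 8 in T-like (8.62%) and 0 of 6 in macrophage-like cells (3.71%).

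The other genes of the pathway were counted by role. Feedback inhibitors of receptor signaling, such as the Sprouty and DUSP genes, were higher in basal than luminal vehicle cells: 5, 4 and 5 of 10 tested at D0, D7 and D14 in ACI rats, 6 of 10 in young SD and 3 of 10 in NMU rats, with none lower. Of all genes 12.4%, 8.22%, 10.8%, 21.8% and 12.4% were higher in basal cells. Their median difference was 1.07, 0.88, 1.31, 1.5 and 1.23, beside 0.21, 0.04, 0.00, 0.02 and −0.27 over all genes. SPRY4 at D0 differed by 3.26 and SPRY1 by 2.77, and SPRY1 in NMU rats by 3.52. Of 8 ERK target genes 1, 2, 2, 1 and 4 were higher and 0, 0, 0, 2 and 1 lower in basal cells in the same order of comparisons. ETV5 was higher in each (3.04 at D0), and IER3 was lower in young SD (−2.25) and NMU rats (−1.21) and FOSL1 in young SD rats (−0.92). Of the other ligands EPGN (3.24 at D0, 5.17 in young SD rats) and NRG2 (2.40 and 1.77) were higher in basal cells, and NRG4 was lower in young SD (−4.09) and NMU rats (−4.87). STAT5A, which carries ERBB4 signals, and STAT5B were lower in basal cells at D0 (−1.93 and −1.48), where 2 of 21 relay genes and 8.04% of all genes were lower. In young SD rats 9 of 21 relay genes were higher and 6 lower, beside 21.8% and 19.2% of all genes.

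With TGFBRi, 2.5% of all genes were higher and 6.23% lower in basal cells of adult virgin rats. These had 3 of 10 feedback inhibitors higher (ERRFI1 by 1.78 and DUSP5 by 1.03 the most) and DUSP6 lower (−1.03), 2 of 4 shedding genes lower (RHBDF2 −1.47 and ADAM17 −1.34) and 4 of 21 relay genes lower (STAT5B −1.82 and STAT5A −1.24 the most). NRG2 was higher there (1.85). In luminal cells of tumor-free NMU rats RHBDF2 and RHBDF1, which steer ADAM17, were higher (1.98 and 1.92; 2 of 4 shedding genes, beside 0.864% of all genes). In luminal vehicle cells NRG2 and EGR1 were lower at D7 (−3.57 and −1.84) and D14 (−3.42 and −1.91) than at D0. In whole-gland basal-like cells 6 of 13 feedback inhibitors rose, where 21.8% of all genes did, and none fell, with a median of 0.67 beside 0.06 over all genes, led by ERRFI1 (1.87) and LRIG1 (0.99). In the other whole-gland classes the counts of this list higher and lower were 0 and 4 in fibroblast-like, 0 and 3 in mature luminal-like, 0 and 2 in endothelium-like, 2 and 4 in smooth muscle-like and 1 and 1 in luminal progenitor-like cells. Of all genes 14.1%, 12.8%, 14.3%, 12.3% and 13.2% were higher and 15.2%, 15.2%, 18.0%, 15.5% and 14.9% lower in these classes. The counts were 0 and 3 in B-like, 0 and 1 in Schwann-like and 0 and 0 in T-like and in macrophage-like cells. There 8.72%, 4.04%, 4.59% and 0.865% of all genes were higher and 8.63%, 6.63%, 4.03% and 2.84% lower. In sorted cells 3 feedback inhibitors rose and 3 fell in ACI basal-like cells (16.3% and 17.8% of all genes), 1 rose and 3 fell in luminal progenitor-like and 0 rose and 6 fell in mature luminal-like cells of ACI rats (14.8% and 13.4%, then 13.4% and 12.3%, of all genes), and 0 rose while 3, 4 and 5 fell in the basal-like, luminal progenitor-like and mature luminal-like cells of SD rats (14.3%, 14.1% and 15.7% of all genes fell), with SPRED1 at −1.75 in the first. In sorted ACI basal-like cells 5 of 8 ERK targets rose, beside 16.3% of all genes, led by PHLDA1 (1.65), and EGR1 fell (−0.66). In ACI luminal progenitor-like cells 4 rose and 2 fell (14.8% and 13.4% of all genes), and in mature luminal-like cells 2 and 2 (13.4% and 12.3%). In SD rats it was 0 and 1 in basal-like (15.4% and 14.3%), 1 and 1 in luminal progenitor-like (14.9% and 14.1%) and 0 and 0 in mature luminal-like cells (16.5% and 15.7%). In whole-gland cells 5 of 8 ERK targets fell and 1 rose in fibroblast-like cells, 4 fell and 0 rose in mature luminal-like, 4 fell and 1 rose in endothelium-like and in smooth muscle-like, 3 fell and 0 rose in luminal progenitor-like and 2 fell and 2 rose in basal-like cells, beside 15.2%, 15.2%, 18.0%, 15.5%, 14.9% and 22.7% of all genes falling. In macrophage-like cells 3 fell and 0 rose, in B-like 3 and 1, in T-like 2 and 0 and in Schwann-like 2 and 1. There 2.84%, 8.63%, 4.03% and 6.63% of all genes fell.

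Over the 27 vehicle groups of the bulk fractions (26 for TGFA and ERBB3) the genes with the level pattern most like each member were found by Pearson's r of the mean log2 CPM. The groups share libraries' lineage and table, so r is a description of lineage as much as of the gene. HBEGF was closest to OVOL1 (0.961) and F11R (0.959), NRG1 to HUNK (0.961) and KCTD15 (0.953), EGFR to FERMT2 (0.953) and OSMR (0.951), TGFA to IRX5 (0.963) and ERBB3 to STX12 (0.944). Weaker leaders were found for AREG (F2RL1 and CTNNBIP1, 0.899 each), BTC (TPH1, 0.831) and EREG (CBR1, 0.812), and ERBB2 was closest to ITPKC (0.929). Between members the highest r values were 0.869 for HBEGF and ERBB3, 0.858 for NRG1 and EGFR and 0.857 for TGFA and EGFR, and NRG1 and BTC had −0.14.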

How the data were processed

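Bulk RNA-seq of sorted fractions (202 samples) and droplet single-cell RNA-seq (39 tables, 160052 cells) were used; genome build rn6 and the tools STAR 2.5.1b, HTSeq, DESeq2 1.30.1, Cell Ranger 4.0.0 and 7.0.0 and Seurat 4.0.0 and 4.1.1 are named in the submitters' processing notes. The bulk files hold signal values that the authors made by dividing read counts by DESeq2 size factors. Whole reads were recovered from the steps of these values (100% of 2526805 values within 0.001 of a whole number), which gave CPM and the reads for edgeR and DESeq2. Rows that name no gene took 23.1 to 42.5% of the total in 85 samples and were left out. The deposited single-cell count matrices were used as raw UMI counts.

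Bulk values were tested with limma 3.58.1 on log2(value + 1), a scale that understates changes of low genes, with trend and robust fits, genes whose values sum to at least 10 and all groups of a fraction in 1 fit; lineage fits used both fractions of young ACI (D0 to D14) or of young and NMU SD rats, whose tables share a normalization. Cells were clustered with scanpy 1.11.5 (30 components, 2000 variable genes, resolution 0.8) and named from fixed markers; doublets were kept, with an alternative that leaves out the 6% highest scores. UMIs summed per class and rat (at least 10 cells and 10 UMIs) were tested with edgeR 4.0.16 (TMM, quasi-likelihood); DESeq2 1.42.0 gave SEs. Calls used Benjamini-Hochberg adjusted p over all genes (0.05 bulk, 0.1 single cells). Scripts were tested on simulated data.

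The members, gene lists and comparisons were chosen with earlier results of these data known. All 10 members were tested; of the other pathway genes, those called with the largest change, up to 2 per direction and list. One rat deposited in parts was averaged. One rat (2 libraries) whose labels disagree on treatment was taken as vehicle, and a CD45+ library whose title gives another day than its other labels as D7. Labels tie both fractions to a rat: deviations from group means correlated with a median of 0.481 within rats (over 0.1 in 15 of 18 pairs) in young ACI and 0.155 (13 of 17) in SD rats, against −0.15 and −0.06 between rats. Alternatives were other tools, TMM scaling, pseudocount 0.5, no filter, only the groups compared, the replicate block, 1 library left out, and, chosen after seeing the data, leaving out libraries over 4.5% ribosomal protein reads. Floors (3 reads) cover counting error only, and 95% intervals are limma's, from the spread between rats. Rats are separate animals. Some of the genes with a level pattern like a member's are not reported here.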

Additional observations from a re-analysis of the deposited data

Results flagged for a closer look

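Of 19 combinations of a called member and a group of 4 rats that were tested for a rat far from the others, 3 were flagged, where chance flags about 1 in 20. ERBB3 in basal cells of adult virgin vehicle rats was at 2457 in 1 rat, against 678 to 802 in the other 3. HBEGF in basal cells of young SD vehicle rats was at 2344 in 1 rat, against 1420 to 1523. AREG in luminal cells of young SD vehicle rats was at 1237 in 1 rat, against 2943 to 3444. All are normalized counts, and the cause was not tested.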

How the results depend on the processing

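Counts of members called are given here as main count and then the count under the alternative. For most alternatives the share of all genes called is not given. The counts therefore show only how calls move with the processing and are not results about the members. DESeq2 on recovered reads called 4 in E2 CD45+ vehicle cells (main 1; edgeR 0, TMM-scaled CPM 2), 2 in E2 luminal vehicle cells (main 0; edgeR 1), 3 in E2 luminal TGFBRi cells (main 1; 2 with only the groups compared), 2 in basal vehicle D7 (main 1), 1 in basal vehicle D14 (main 0), 3 in luminal vehicle D7 (main 1), 1 in luminal D7 and 1 in the CD45+ TGFBRi effect D14 minus D0 (main 0), 4 in tumor-free and 4 in tumor-bearing NMU luminal cells (main 2 and 0) and 2 in tumor-bearing NMU CD45+ cells (main 0). With edgeR basal D0 went from 1 to 0. With only the groups compared, adult virgin basal went from 3 to 0, basal and luminal vehicle D7 from 1 to 0, luminal vehicle D14 from 1 to 2 and luminal D0 from 0 to 1. TMM scaling took luminal vehicle D14 from 1 to 0 and tumor-free NMU luminal from 2 to 0, as did no filter for the latter. Without the ribosomal-high libraries basal vehicle D14 and luminal D7 went from 0 to 1 and luminal vehicle D7 from 1 to 2. A pseudocount of 0.5 moved none of these counts by over 1.5 times. With the replicate block the lineage counts at D7 and D14 went from 5 to 8; at D0, in SD and in NMU rats they were 8, 6 and 4 (main 7, 6 and 3). No lineage call of a member was lost with the block, and those gained are given beside the results.

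In single cells DESeq2 gave 1 (main 2) in ACI mature luminal-like and 3 (main 6) in B-like cells, a minimum of 1 UMI gave 1 (main 2) in SD mature luminal-like cells, and leaving out likely doublets gave 1 (main 0) in macrophage-like and 0 (main 1) in T-like cells. Over sorted fractions in place of classes ACI luminal progenitor-like went from 4 to 2 and SD luminal progenitor-like and mature luminal-like from 2 to 1. EREG in SD luminal progenitor-like cells turned sign, to −0.10.

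Leaving out 1 rat at a time gave 0 to 1 in the CD45+ TGFBRi effect D14 minus D0, E2 CD45+ vehicle and tumor-bearing TGFBRi cells, adult parous luminal cells, basal D0, basal vehicle D7 and macrophage-like and T-like cells; 0 to 2 in E2 luminal vehicle cells, tumor-bearing NMU basal cells and sorted SD basal-like and mature luminal-like cells; 0 to 3 in sorted SD luminal progenitor-like cells, 0 to 4 and 0 to 5 in tumor-bearing and tumor-free NMU luminal cells, and 0 in luminal vehicle D7 and D14. It gave 1 to 2 in ACI mature luminal-like and endothelium-like, 2 to 4 in smooth muscle-like, 2 to 5 in adult virgin basal and whole-gland luminal progenitor-like, 2 to 6 in B-like, 4 to 7 in whole-gland mature luminal-like and 5 to 9 in whole-gland basal-like cells. Low read numbers limit the precision for BTC, ERBB4 and EREG.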
